A study of Mus musculus with 12 samples.

Results

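A set of 10 genes of bone mineralization and of the non-collagenous bone matrix was followed over the 4 conditions of the experiment: Alpl, Phospho1, Enpp1, Ibsp, Spp1, Bglap, Bglap2, Sparc, Mgp and Tmem119. They were taken by gene name from the 56350 genes of the count table, and all 10 were found and had enough counts to be tested. RNAseq was done on the MPC2 line, a conditionally immortalized mouse mesenchymal progenitor line that is 1 clone, with 3 libraries in each condition and 12 in all. The cells, here called MSCs, were kept undifferentiated at 33 °C, or were differentiated into osteocytes for 3 weeks at 37 °C in medium with ascorbic acid and beta-glycerophosphate. Each cell type received vehicle (DMSO) or 50 µmol/L FG-4592 (Roxadustat), an inhibitor of the HIF prolyl hydroxylases (HIF-PHI), for 48 h. Temperature and medium changed together with differentiation, so their parts in any difference between osteocytes and MSCs cannot be told apart. Nothing in the labels says that the 3 libraries of a condition came from separate cultures, and the p-values then measure only the spread between these samples.

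Bone mineral grows where phosphate is plentiful and pyrophosphate is scarce. Enpp1 makes pyrophosphate outside the cell, tissue-nonspecific alkaline phosphatase (Alpl) cleaves it to phosphate, and Phospho1 releases phosphate inside matrix vesicles. Secreted proteins that bind calcium or crystals then promote or restrain crystal growth in the collagen matrix, among them the SIBLING phosphoproteins bone sialoprotein (Ibsp) and osteopontin (Spp1), the vitamin K-dependent Gla proteins osteocalcin (Bglap, Bglap2) and matrix Gla protein (Mgp), and osteonectin (Sparc). Tmem119 is a membrane protein of osteoblasts that is also widely used as a marker of microglia.

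Levels are given as CPM, counts scaled to a common library total after TMM correction. Fold changes, standard errors (SE) and Benjamini-Hochberg adjusted p-values (FDR) come from edgeR's quasi-likelihood test over 16484 genes, with 3 libraries against 3. In what follows, a gene rose or fell when its FDR was under 0.05, and was upregulated or downregulated when its log2 fold change was also beyond 1 in size. Library totals lay between 52829185 and 68108470 counts, and a count of 0 allows a level of up to 0.0447 to 0.0545 CPM, which covers counting error only. In 12 of 12 libraries the nearest library was of the same condition.

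Cell markers moved between the conditions, and their part in the levels below was not tested. Of 6 osteocyte markers, Sost was at 0 in every library and Mepe and Pdpn never exceeded 2 counts, while Dmp1, Phex and Fgf23 were measurable. Pdpn is listed under 2 gene IDs, one on chromosome 4 and one on an alternate scaffold, and reads that fit both places would fall under the mapping quality minimum, so its counts do not show that it was absent. The summed level of these 6 was 1.69 to 3.13 CPM in MSCs with vehicle, 0.375 to 0.772 CPM in MSCs with FG-4592, 61.4 to 76.7 CPM in osteocytes with vehicle and 6.06 to 7.00 CPM in osteocytes with FG-4592. In osteocytes the fall lay in Phex, from 57.6 to 2.83 CPM, and Dmp1, from 11.2 to 2.06 CPM, while Fgf23 went from at most 5 counts to 79 to 125 counts. The 6 osteoblast markers, which include Alpl and Bglap, were all detected in every library, at a summed 7990 to 9893 CPM, nearly all from Col1a1 and Col1a2, neither of which passed the FDR cutoff in any comparison. Sp7, the transcription factor osterix, fell with FG-4592 from 66.5 to 36.3 CPM in MSCs (-0.87, SE 0.05, FDR 2.37e-09) and from 90.5 to 55.1 CPM in osteocytes (-0.72, SE 0.05, FDR 1.66e-08), and Runx2 from 128 to 117 and from 190 to 145 CPM (FDR 0.0217 and 2.13e-06). Adipocyte markers rose with differentiation in 5 of the 6 cases, the exception being Lep, which had at most 3 counts in any library. Their sum was 82.8 to 89.1 CPM and 69.9 to 73.0 CPM in MSCs with vehicle and FG-4592, and 1683 to 2310 CPM and 1924 to 2297 CPM in the corresponding osteocytes. Adiponectin (Adipoq) alone had a mean of 1470.1 CPM in osteocytes with vehicle. The sum of 5 chondrocyte markers was 82.8 to 92.2, 148 to 164, 108 to 128 and 367 to 445 CPM in the same order of conditions, and its members did not move together. Col2a1 had means of 0.771, 1.31, 62.7 and 294 CPM, Sox9 of 84.2, 154, 51.7 and 119 CPM, and Col10a1 of 2.03, 2.82, 0.693 and 1.31 CPM, while Acan and Col9a1 had at most 3 and 15 counts. Mesenchymal stem cell markers, 6 in number with Thy1 at 6 counts or fewer, summed to 756 to 766, 854 to 875, 714 to 756 and 924 to 953 CPM. These did not move together either, with means for Ly6a of 216, 396, 55.8 and 320 CPM, for Pdgfra of 292, 234, 424 and 363 CPM, for Eng of 127, 106, 120.3 and 122 CPM, for Cd44 of 126, 131, 117 and 104 CPM, and for Nt5e of 0.464, 0.229, 18.7 and 32.4 CPM. The 4 muscle markers summed to 2.35 to 8.65 CPM, nearly all from Des, with the other 3 at 1 count or fewer. Markers of blood and vessel cells summed to at most 2.08 CPM. In bulk RNA, fewer cells of a type and less RNA per cell cannot be told apart. Treatment was visible in 5 HIF-responsive genes, all of which rose in osteocytes and 4 of which rose in MSCs, where Egln3 had at most 1 count. Their sum lay at 392 to 406 CPM in MSCs with vehicle and at 4562 to 4762 CPM with FG-4592, and at 412 to 465 and 3592 to 3749 CPM in osteocytes.

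In osteocytes, FG-4592 raised Tmem119 9.58-fold, lowered Ibsp 2.93-fold, lowered both osteocalcin genes, and gave no change past the FDR cutoff for Spp1 and Sparc. In MSCs it lowered Ibsp 17.4-fold and Alpl 3.98-fold and raised Phospho1 3.82-fold. Alpl and Ibsp fell, and Phospho1 and Tmem119 rose, in both cell types. Differentiation raised Bglap, Mgp, Bglap2 and Enpp1 most, while Alpl, Ibsp and Phospho1 were lower in osteocytes than in MSCs under vehicle.

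**Figure D1:**
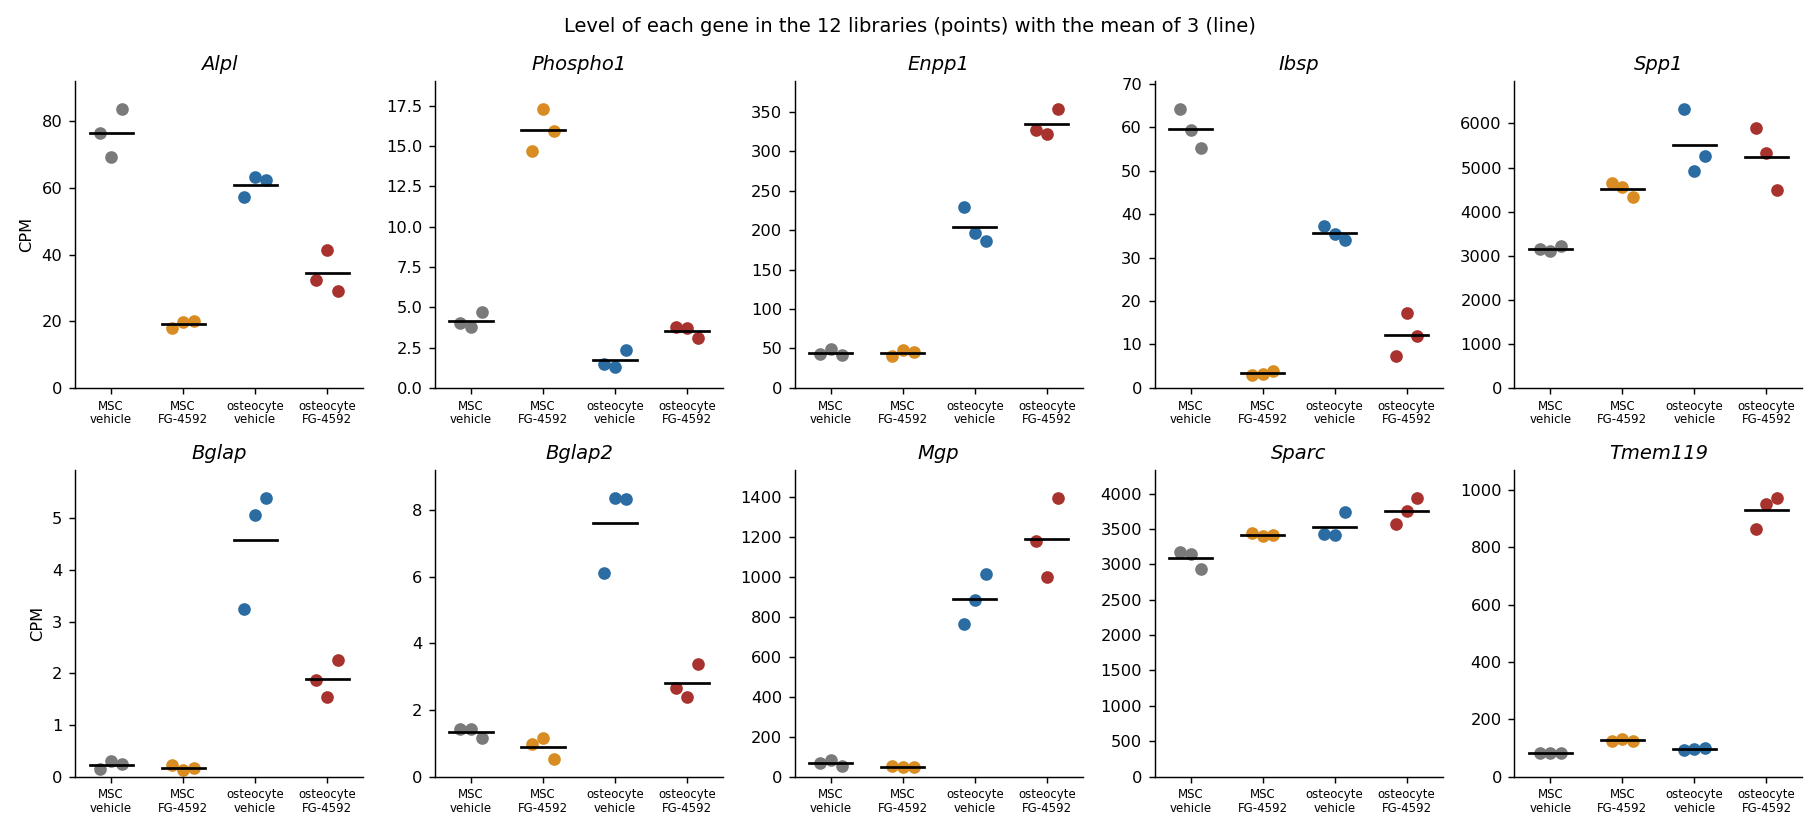
CPM (vertical axes, each starting at 0) of each of the 10 genes in the 12 libraries, as points, in the 4 conditions on the horizontal axes, with a line at the mean of 3. Tmem119 stands at 862 to 973 CPM in osteocytes with FG-4592 against at most 132 CPM elsewhere, and Ibsp falls to 3.04 to 3.98 CPM in MSCs with FG-4592.

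Between osteocytes and MSCs under vehicle, 4 of the 10 genes were upregulated, where 9.83% of all genes tested were, and 1 was downregulated, where 6.08% of all genes were. That made 5 of 10 past both cutoffs beside 15.9% of all genes. At the FDR alone, 7 rose (26% of all genes) and 3 fell (24.9%), so all 10 passed beside 51% of all genes. The libraries of both conditions did not overlap for any of the 10, which held for 56.9% of all genes. The median log2 fold change of the 10 was 0.52, beside -0.01 over all genes. With FG-4592 in both cell types, 6 were upregulated in osteocytes (12.6% of all genes) and 1 was downregulated (5.64%), 7 in all beside 18.3%. At the FDR alone 9 rose (30.5%) and 1 fell (25.3%), again all 10 beside 55.8% of all genes, and 9 did not overlap (64.1%). Their median was 1.75 beside 0.03 over all genes.

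Under FG-4592 in MSCs, 1 gene was upregulated (4.12% of all genes) and 2 were downregulated (5.17%), 3 in all beside 9.29%. At the FDR alone 4 rose (17.6%) and 3 fell (20.4%), 7 in all beside 38.1%, and 8 did not overlap (50.5%), one of them Bglap2 by a gap of only 2.17e-05 CPM. In osteocytes 2 were upregulated (6.25%) and 3 were downregulated (4.26%), 5 in all beside 10.5%. At the FDR alone 4 rose (21.9%) and 4 fell (22%), 8 in all beside 43.8%, and 7 did not overlap (51.8%). The median log2 fold change was -0.22 in MSCs beside -0.05 over all genes, and 0.01 in osteocytes beside 0.00. The responses of MSCs and osteocytes differed past both cutoffs for 3 of the 10 genes, Alpl, Ibsp and Tmem119, all with the more positive value in osteocytes, where 3.94% of all genes had this and 5.01% passed in either direction. This number was 3 to 5 when each library was left out in turn. At the FDR alone the difference was positive for 5 genes (13.3% of all genes) and negative for 2 (11%), 7 in all beside 24.3% of all genes. The comparison of cell types under vehicle and the responses to FG-4592 share the vehicle libraries, so their values below are not independent of each other.

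**Figure D2:**
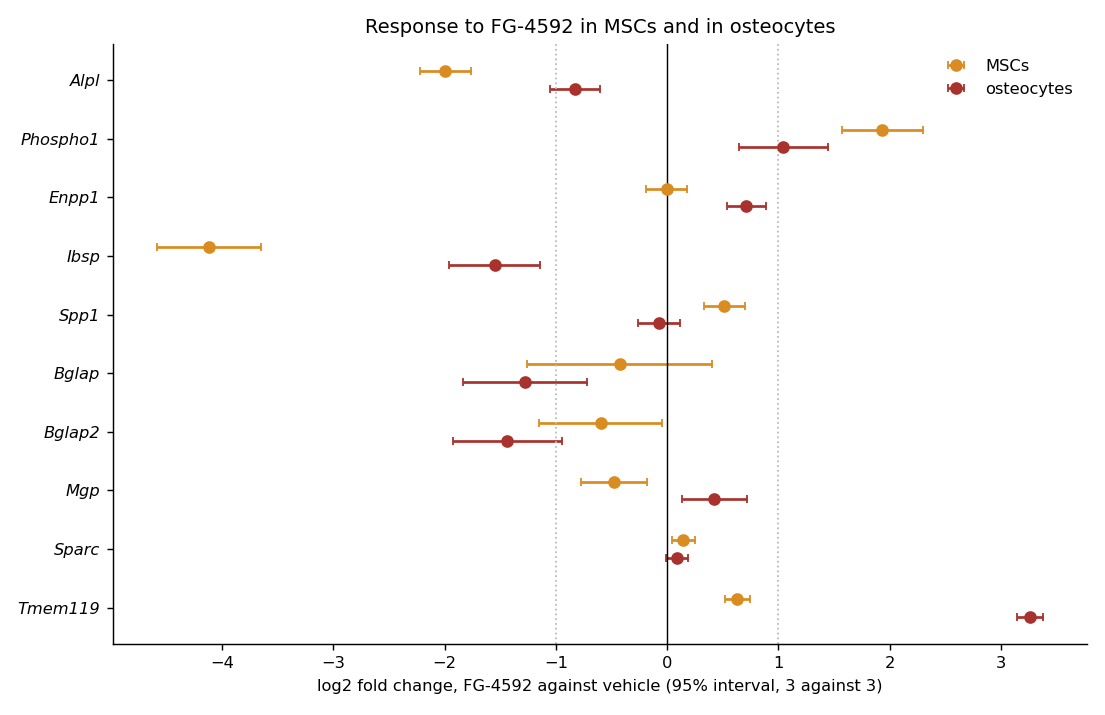
log2 fold change (horizontal axis) of each gene with FG-4592 against vehicle in MSCs and in osteocytes, with 95% intervals from edgeR and 3 libraries against 3; dotted lines mark a change of 1. The intervals of Alpl, Ibsp and Tmem119 in MSCs and osteocytes lie apart, and those of Sparc overlap.

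Alpl, whose product frees phosphate from pyrophosphate and other esters, was read in the MSC libraries with vehicle at 76.6, 69.4 and 83.7 CPM and with FG-4592 at 17.9, 19.7 and 20.2 CPM. In osteocytes it was at 57.3, 63.3 and 62.4 CPM with vehicle and at 32.5, 41.5 and 29.0 CPM with FG-4592. All 4 conditions were thus separate, in the order MSCs with FG-4592, osteocytes with FG-4592, osteocytes with vehicle and MSCs with vehicle. FG-4592 downregulated Alpl in MSCs by 3.98-fold (log2 fold change -1.99, SE 0.11, FDR 4.81e-10). In osteocytes Alpl fell by 1.77-fold (-0.83, SE 0.10, FDR 7.48e-06), short of the fold cutoff. The response differed between the cell types by 1.16 on the log2 scale (SE 0.15, FDR 3.33e-05). Osteocytes were lower than MSCs under vehicle (-0.33, SE 0.10, FDR 0.014) and higher under FG-4592 (0.84, SE 0.11, FDR 5.73e-06). The difference under vehicle lost its FDR, at 0.0531 to 0.129, when MSC vehicle library 1 or 3 or osteocyte vehicle library 1 was left out.

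Ibsp, a SIBLING protein that nucleates hydroxyapatite, gave 64.2, 59.3 and 55.3 CPM in MSCs with vehicle and 3.04, 3.26 and 3.98 CPM with FG-4592. The osteocyte libraries held 37.2, 35.5 and 34.1 CPM with vehicle and 7.44, 17.2 and 11.9 CPM with FG-4592. No condition overlapped another, and the order of the levels was the same as for Alpl. Ibsp was downregulated 17.4-fold by FG-4592 in MSCs (-4.12, SE 0.22, FDR 3.39e-10), the largest change of a member with treatment, and 2.93-fold in osteocytes (-1.55, SE 0.19, FDR 5.91e-06). The responses differed by 2.57 (SE 0.28, FDR 7.32e-06). Under vehicle osteocytes were below MSCs (-0.74, SE 0.18, FDR 0.00289), and under FG-4592 they were above them (1.82, SE 0.22, FDR 2.13e-06). Its osteocyte libraries with FG-4592 ranged from 7.44 to 17.2 CPM, and leaving out each library in turn moved the osteocyte response between -1.88 and -1.29.

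Over the 12 libraries, Ibsp was the protein-coding gene whose log2 CPM was most like that of Alpl (Pearson r = 0.986), among 11253 genes that averaged 100 counts or more in the condition where they were highest. Alpl was in turn the most like Ibsp. These 12 points share 4 conditions, so r mostly describes the condition means. The RefSeq promoter windows of both genes (GRCm38.p6, from 250 bases before the start site to 50 after it, nearest the start of the gene) are shown because both genes fell with FG-4592 in both cell types. Each was searched on both strands for ACGTG and GCGTG, the core letters of the hypoxia response element (HRE) to which HIF binds, and for TGTGGT, a core of Runx sites. Neither was found in either window, nor in the other RefSeq window of Alpl, chr4:137766426-137766725, which is not shown. Of all 32851 promoter windows of this length, 43.8% hold an HRE core and 16.8% a Runx core. Such a search describes these letters in these windows only. Bglap2, Mgp and Tmem119 had no window and were not searched.
Alpl, chr4:137796335-137796634, minus strand: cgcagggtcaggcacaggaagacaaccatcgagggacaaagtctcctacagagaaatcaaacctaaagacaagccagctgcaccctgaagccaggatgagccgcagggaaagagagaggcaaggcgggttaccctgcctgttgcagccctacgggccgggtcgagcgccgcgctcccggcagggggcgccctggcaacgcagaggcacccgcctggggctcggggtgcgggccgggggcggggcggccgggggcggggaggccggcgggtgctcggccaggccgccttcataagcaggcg
Ibsp, chr5:104299037-104299336, plus strand: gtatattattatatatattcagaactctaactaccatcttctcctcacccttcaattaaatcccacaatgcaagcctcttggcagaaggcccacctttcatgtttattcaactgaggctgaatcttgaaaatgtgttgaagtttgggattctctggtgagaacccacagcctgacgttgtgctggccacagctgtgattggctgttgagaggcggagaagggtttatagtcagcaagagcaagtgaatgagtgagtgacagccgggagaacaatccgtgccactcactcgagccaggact

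Phospho1, the phosphatase that releases phosphate from phosphocholine and phosphoethanolamine in matrix vesicles, was at 4.05, 3.77 and 4.70 CPM in MSCs with vehicle and at 14.7, 17.3 and 15.9 CPM with FG-4592. Osteocytes held 1.48, 1.28 and 2.36 CPM with vehicle and 3.76, 3.73 and 3.07 CPM with FG-4592. The treated libraries were above the vehicle libraries in both cell types, and the highest treated osteocyte library, at 3.76 CPM, was just under the lowest MSC library with vehicle, at 3.77 CPM. FG-4592 upregulated Phospho1 3.82-fold in MSCs (1.93, SE 0.17, FDR 1.85e-07) and 2.06-fold in osteocytes (1.04, SE 0.19, FDR 0.000268). The osteocyte value sat at the fold cutoff and fell to 0.87 to 0.99 without osteocyte vehicle library 1 or 2 or FG-4592 library 1, with the FDR still at 0.002 or less in these fits. The difference of the responses was -0.89 (SE 0.25, FDR 0.0174), and it was -0.59 with an FDR of 0.0533 without osteocyte vehicle library 3. Against MSCs, Phospho1 was the only one of the 10 genes downregulated in osteocytes, 2.45-fold under vehicle (-1.29, SE 0.19, FDR 2.68e-05) and 4.54-fold under FG-4592 (-2.18, SE 0.17, FDR 2.24e-08).

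The position of Phospho1 limits what its counts hold. Of its 2029 exonic bases (chr11:95824499-95832140, mm10, plus strand), 1818 also belong to Zfp652 on the same strand, which had a mean of 10220 counts per library, and 1708 to Abi3 on the opposite strand, which had at most 67. In these counts, 210 of 210 genes that lie wholly in the exons of a same-strand gene with more than 20000 counts are at 0, so read pairs that fit several genes of a strand appear not to be counted, although the study's methods state that they are. On the opposite strand 90 of 127 such genes have counts. The counts of Phospho1, 71 to 1162 per library, would then come from pairs that touch its 211 unshared bases and no exon of Zfp652. These bases are chr11:95824499-95824709, at the 5′ end of the gene. Its level was therefore not ranked with those of other genes.

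The promoter window of Phospho1 ends within that unshared stretch and held 9 matches to the HRE core letters on both strands, which are in capitals. The match nearest the start site begins 22 bases before it, and the others lie between 219 and 86 bases before it, where ACGTG and its reverse complement CACGT overlap once and CACGC and CACGT share a base once. No Runx core was found.
Phospho1, chr11:95824250-95824549, plus strand: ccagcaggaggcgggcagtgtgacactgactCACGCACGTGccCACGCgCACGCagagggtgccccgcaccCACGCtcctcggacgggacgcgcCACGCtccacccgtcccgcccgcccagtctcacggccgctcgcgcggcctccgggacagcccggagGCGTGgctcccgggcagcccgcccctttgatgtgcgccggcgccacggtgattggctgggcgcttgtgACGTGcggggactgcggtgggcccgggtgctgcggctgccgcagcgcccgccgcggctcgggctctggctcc

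Enpp1, which hydrolyses nucleotides to pyrophosphate and so opposes Alpl, was at 43.1, 49.5 and 41.1 CPM in MSCs with vehicle and at 40.2, 48.1 and 45.0 CPM with FG-4592. In osteocytes the libraries held 229.6, 196 and 186 CPM with vehicle and 327, 322 and 354 CPM with FG-4592. MSC libraries overlapped whatever the treatment, and every osteocyte library with FG-4592 lay above every one with vehicle. Enpp1 was upregulated 4.58-fold with differentiation under vehicle (2.19, SE 0.09, FDR 6.45e-12) and 7.52-fold under FG-4592 (2.91, SE 0.09, FDR 1.58e-13). The treatment raised it 1.64-fold in osteocytes (0.71, SE 0.08, FDR 3.39e-06). In MSCs the log2 fold change was 0.00 (SE 0.09, 95% interval -0.19 to 0.18, FDR 0.981). The responses differed by 0.72 (SE 0.12, FDR 0.000405). Its promoter window, shown as the other of the 7 members with a window in which HRE core letters were found, held 3 of them and 1 Runx core (ACCACA on this strand), all in capitals. HRE core letters were thus found in 2 of the 7 windows, beside 43.8% of all promoter windows. A Runx core was found once each in 4 of the 7 windows, those of Enpp1, Spp1, Bglap and Sparc, beside 16.8% of all windows. The match of Sparc lies 35 to 40 bases after the start site. The other RefSeq window of Spp1 held neither motif.
Enpp1, chr10:24712110-24712409, minus strand: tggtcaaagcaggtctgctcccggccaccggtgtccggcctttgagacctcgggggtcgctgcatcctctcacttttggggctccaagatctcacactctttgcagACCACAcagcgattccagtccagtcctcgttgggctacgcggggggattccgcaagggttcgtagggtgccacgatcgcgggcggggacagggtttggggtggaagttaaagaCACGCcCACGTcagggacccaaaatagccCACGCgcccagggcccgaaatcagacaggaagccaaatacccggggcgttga

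Set against Alpl in the same library and per kilobase of exon, Enpp1 was at 0.193 to 0.280 of the Alpl level in MSCs with vehicle and at 0.878 to 0.959 in MSCs with FG-4592. The ratio was 1.17 to 1.58 in osteocytes with vehicle and 3.05 to 4.79 in osteocytes with FG-4592. The 4 conditions did not overlap. Whether the ratio lies above or below 1 depends on the exon lengths used, 10257 bases for Enpp1 and 4033 for Alpl. In plain CPM, Enpp1 was already above Alpl in MSCs with FG-4592, at means of 44.4 and 19.2 CPM. The ratio combines the tests given above and was not tested separately.

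**Figure D3:**
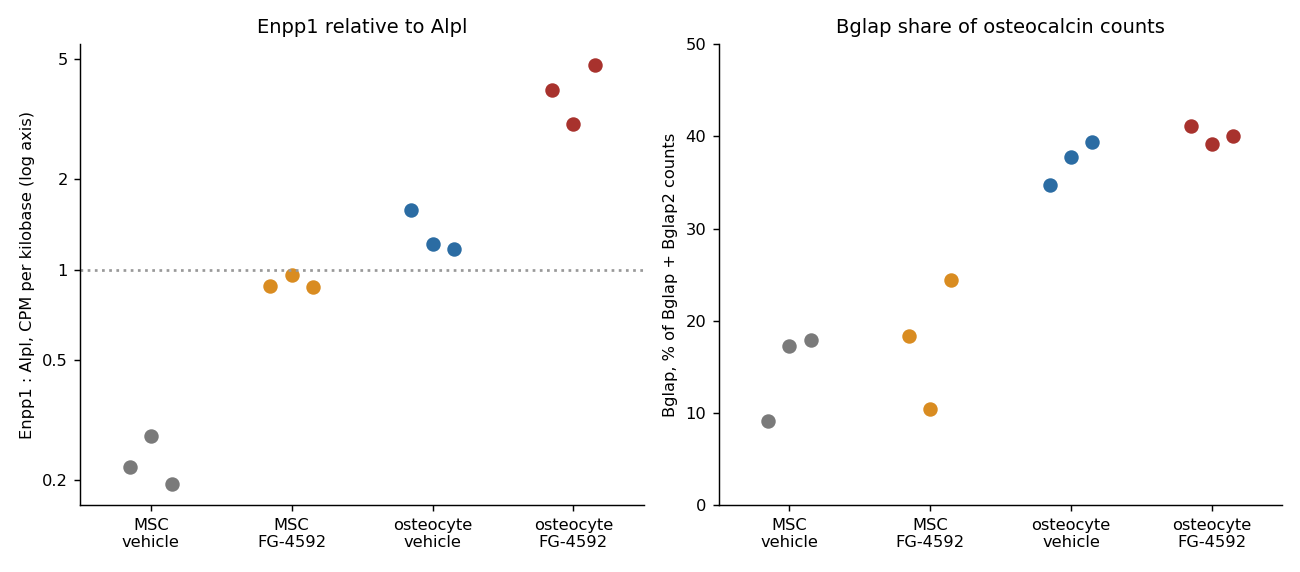
Left, Enpp1 level divided by Alpl level in CPM per kilobase (vertical log axis, dotted line at 1) in each of the 12 libraries; right, Bglap counts as a percentage of Bglap plus Bglap2 counts. With the exon lengths used, the ratio lies below 1 in the MSC libraries and above 1 in the osteocyte libraries. The Bglap share is at most 24.4% in MSCs and at least 34.7% in osteocytes.

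Spp1 encodes osteopontin, a phosphoprotein that binds mineral and inhibits crystal growth and that cells grip through integrins. It gave 3155, 3103 and 3211 CPM in MSCs with vehicle and 4639, 4562 and 4332 CPM with FG-4592. Osteocytes were at 6330.2, 4932 and 5267 CPM with vehicle and at 5907, 5321 and 4486 CPM with FG-4592. MSCs with vehicle lay below all others, while the osteocyte conditions overlapped each other and treated MSCs reached into treated osteocytes. Spp1 rose 1.43-fold with FG-4592 in MSCs (0.52, SE 0.09, FDR 0.000203), and its change in osteocytes was -0.07 (SE 0.09, 95% interval -0.26 to 0.11, FDR 0.545). These responses differed by -0.59 (SE 0.12, FDR 0.00247). Osteocytes exceeded MSCs 1.75-fold under vehicle (0.80, SE 0.09, FDR 1.28e-06). Under FG-4592 the excess was 0.22 (SE 0.09, FDR 0.0481), and it missed the FDR cutoff under 13 of 22 other settings, with a range of 0.13 to 0.32. Of its 1648 exonic bases, 309 are shared with the same-strand locus Gm42793.

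Per kilobase of exon, Spp1 was the highest of the members in every condition, at 1915, 2737, 3343 and 3178 CPM per kilobase in MSCs with vehicle and with FG-4592 and in osteocytes with vehicle and with FG-4592. Sparc followed at 815 to 992 CPM per kilobase, level with Mgp in osteocytes with FG-4592, where their libraries overlapped. In MSCs with vehicle the order then ran Mgp, Tmem119, Ibsp, Alpl, Enpp1, Bglap2 and Bglap, without overlap between neighbours. In osteocytes with vehicle Enpp1 stood above Ibsp and Alpl, which were at 17.2 and 15.1 CPM per kilobase, and Bglap2, at 16.1, overlapped both of these. Tmem119 stood at 401 CPM per kilobase in osteocytes with FG-4592, between Sparc and Enpp1. Phospho1 was left out of this order. The places of Bglap and Bglap2 use their full exon lengths. Read pairs lying wholly in the stretches that these genes share would not have been counted, as described below. The levels of both genes per kilobase may therefore be too low.

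Bglap and Bglap2 are neighbouring osteocalcin genes on chromosome 3 (chr3:88383501-88384464 and chr3:88377736-88378699, both on the minus strand), and osteocalcin is the classical product of mature osteoblasts. Their coding sequences, shown because the reads must tell them apart, are each of 285 bases and differ at 4 of them (98.6% identical), in capitals below, in GENCODE M21 transcripts. Of 341 windows of 100 bases in the Bglap transcript, 192 also occur in that of Bglap2, so a read from these places cannot be assigned by itself. A pair lying wholly in such places would not pass the stated mapping quality minimum of 10. A mate outside them could still place the pair, and how many pairs were lost was not measured.
Bglap coding sequence: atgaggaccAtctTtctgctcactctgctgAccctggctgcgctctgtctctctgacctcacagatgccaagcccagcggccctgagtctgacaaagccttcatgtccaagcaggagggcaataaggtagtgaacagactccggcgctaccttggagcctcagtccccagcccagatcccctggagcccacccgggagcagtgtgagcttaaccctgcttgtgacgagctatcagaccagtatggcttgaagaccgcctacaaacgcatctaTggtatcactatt
Bglap2 coding sequence: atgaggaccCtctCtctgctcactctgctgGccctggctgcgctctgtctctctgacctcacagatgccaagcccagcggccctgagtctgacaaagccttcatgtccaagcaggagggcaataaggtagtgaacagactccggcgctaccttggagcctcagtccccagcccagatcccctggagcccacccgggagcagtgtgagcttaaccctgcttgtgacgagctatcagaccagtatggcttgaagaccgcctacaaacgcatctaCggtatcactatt

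Bglap was scarce in MSCs, where the vehicle libraries had 8, 18 and 16 counts and those with FG-4592 had 13, 9 and 11. Its counts in osteocytes were 216, 282 and 332 under vehicle and 121, 94 and 137 under FG-4592, which was 3.25, 5.07 and 5.40 CPM against 1.86, 1.54 and 2.26 CPM. Every osteocyte library was above every MSC library, and every treated osteocyte library was below those with vehicle. Differentiation upregulated Bglap 19.4-fold under vehicle (4.28, SE 0.32, FDR 1.43e-08) and 10.8-fold under FG-4592 (3.43, SE 0.33, FDR 2.24e-07). FG-4592 downregulated it 2.42-fold in osteocytes (-1.28, SE 0.26, FDR 0.000848). In MSCs the change was -0.43 (SE 0.39, 95% interval -1.26 to 0.41, FDR 0.433).

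For Bglap2 the MSC libraries had 79, 86 and 73 counts under vehicle and 58, 77 and 34 under FG-4592. The osteocyte libraries had 406, 466 and 512 counts under vehicle and 173, 146 and 205 under FG-4592, at 6.11, 8.38 and 8.33 CPM against 2.66, 2.39 and 3.38 CPM. The order of the condition means was that of Bglap, with higher levels in MSCs, where the treated and vehicle libraries all but touched. It was upregulated 5.68-fold with differentiation under vehicle (2.50, SE 0.24, FDR 2.95e-07) and 3.17-fold under FG-4592 (1.67, SE 0.25, FDR 3.04e-05). FG-4592 downregulated it in osteocytes (-1.43, SE 0.23, FDR 7.87e-05), and in MSCs its change was -0.60 (SE 0.26, FDR 0.0852). For neither gene did the responses of the cell types differ at this FDR (Bglap -0.85, SE 0.48, FDR 0.224, and Bglap2 -0.84, SE 0.35, FDR 0.092). The difference of Bglap2 passed the FDR cutoff under 3 of 21 other settings, and its change in MSCs under 2 of 22.

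The third osteocalcin gene, Bglap3, had 0 to 4 counts in every library and was not tested. Bglap made up 9.20% to 24.4% of the Bglap and Bglap2 counts in MSCs and 34.7% to 41.2% in osteocytes. With the counts of the 3 genes summed, osteocalcin rose with differentiation by 2.93 on the log2 scale (FDR 1.29e-08) and fell by 1.37 with FG-4592 in osteocytes (FDR 3.2e-05), and its change with FG-4592 in MSCs was -0.59 (FDR 0.0637).

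Mgp encodes matrix Gla protein, an inhibitor of calcification in arteries and cartilage. The MSC libraries held 68.6, 81.3 and 53.4 CPM with vehicle and 52.6, 47.6 and 45.6 CPM with FG-4592. In osteocytes the values were 762, 882 and 1014 CPM with vehicle and 1176, 997 and 1394 CPM with FG-4592. Osteocytes lay far above MSCs, the MSC conditions were just apart, and the osteocyte conditions overlapped. Mgp was upregulated with differentiation 13.1-fold under vehicle (3.71, SE 0.15, FDR 7.61e-12) and 24.5-fold under FG-4592 (4.61, SE 0.16, FDR 5.55e-13). With FG-4592 it fell in MSCs (-0.48, SE 0.14, FDR 0.0125) and rose in osteocytes (0.43, SE 0.14, FDR 0.0182), and the responses differed by 0.90 (SE 0.20, FDR 0.00287). The MSC change had an FDR of 0.115 without vehicle library 2 and 0.0507 without FG-4592 library 3. The osteocyte change missed the FDR cutoff under 5 of 22 settings, at 0.105 without FG-4592 library 3. The summed adipocyte markers given above were also higher in osteocytes, and their part in the rise of Mgp was not tested.

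**Figure D4:**
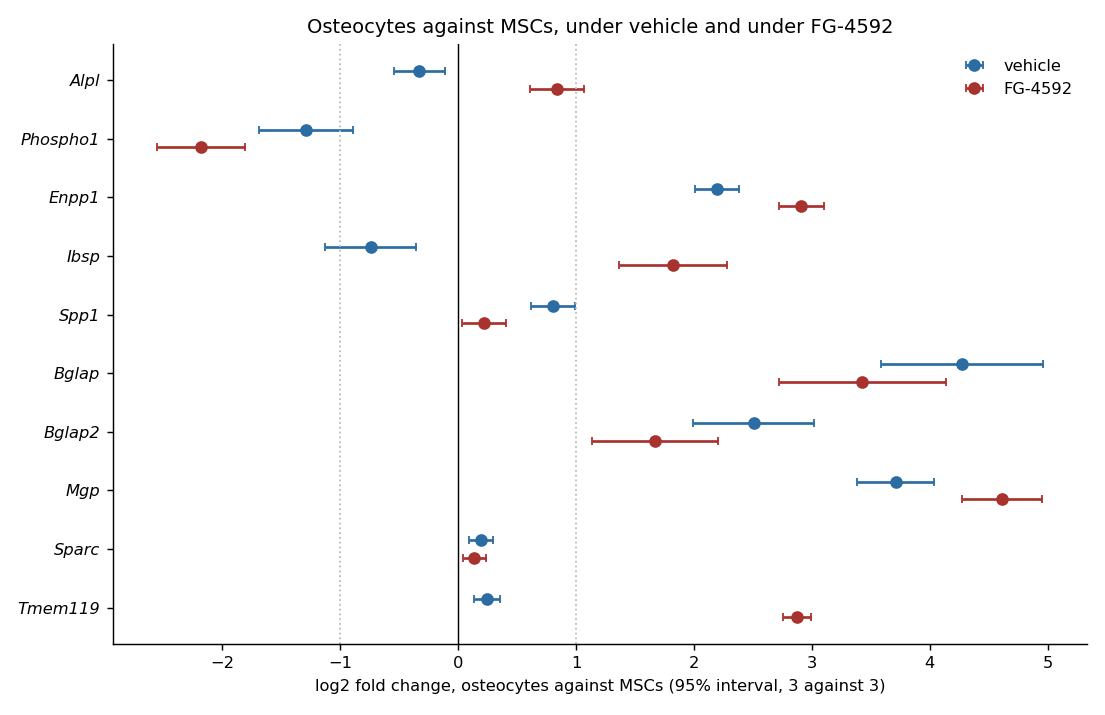
log2 fold change (horizontal axis) of osteocytes against MSCs under vehicle and under FG-4592 for each gene, with 95% intervals from edgeR and 3 libraries against 3; dotted lines mark a change of 1. Alpl and Ibsp are below 0 under vehicle and above 0 under FG-4592, and Tmem119 moves from 0.24 to 2.87.

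Sparc encodes osteonectin, which binds collagen and calcium. It was read at 3171, 3148 and 2941 CPM in MSCs with vehicle and at 3438, 3396 and 3409 CPM with FG-4592. Osteocytes held 3429, 3418 and 3739 CPM with vehicle and 3574, 3751 and 3943 CPM with FG-4592. Its condition means differed least among the 10 genes, and only the MSCs with vehicle stood apart. Osteocytes exceeded MSCs by 0.19 under vehicle (SE 0.05, FDR 0.00288) and by 0.14 under FG-4592 (SE 0.05, FDR 0.0217). With FG-4592 it rose by 0.15 in MSCs (SE 0.05, FDR 0.0233), and by 0.09 in osteocytes, short of the FDR cutoff (SE 0.05, 95% interval -0.01 to 0.19, FDR 0.143). The rise in MSCs missed the cutoff under 5 of 22 settings, with values of 0.06 to 0.19, and the excess under FG-4592 missed it under 6 of 22.

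Tmem119 was at 81.6, 83.3 and 80.7 CPM in MSCs with vehicle and at 125, 132 and 124 CPM with FG-4592. It was at 93.7, 96.4 and 100.5 CPM in osteocytes with vehicle and at 862, 950 and 973 CPM with FG-4592. No condition overlapped another, and the treated osteocytes stood alone. FG-4592 upregulated Tmem119 9.58-fold in osteocytes (3.26, SE 0.06, FDR 2.65e-16) and raised it 1.55-fold in MSCs (0.63, SE 0.05, FDR 7.38e-08). The difference between these responses, 2.63 (SE 0.07, FDR 2.48e-12), had the same size as that of Ibsp within its error and lay between 2.56 and 2.67 in every other setting run. Osteocytes were above MSCs by 0.24 under vehicle (SE 0.05, FDR 0.000985) and by 2.87 under FG-4592 (SE 0.05, FDR 5.44e-16). The blood and vessel markers, which include the leukocyte gene Ptprc and the macrophage gene Cd68, summed to at most 1.59 CPM in these osteocytes, while the levels of the chondrocyte and mesenchymal stem cell markers are those given above, some higher and some lower there, and their part in the rise of Tmem119 was not tested.

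The patterns most like each member over the 12 libraries, which share 4 conditions, are given as a description only. After Ibsp, Alpl was most like Pnp (r = 0.974) and Lmod1 (r = 0.967), and after Alpl, Ibsp was most like Ano3 and Pnp (both r = 0.971). Phospho1 was most like Pebp1 (r = 0.9885), Gpr137b (r = 0.984) and Dusp10 (r = 0.9825), and Enpp1 most like Pik3r1 (r = 0.998), Fhl1 (r = 0.997) and Trf (r = 0.996). The nearest to Spp1 were Canx (r = 0.981), Pbrm1 (r = 0.969) and Tmx2 (r = 0.967), and to Sparc Uspl1 (r = 0.953), Dnaja3 (r = 0.951) and Ogfod2 (r = 0.949). Bglap was nearest to Pnpla3 (r = 0.996), Urb1 and Mccc1 (both r = 0.992), and Bglap2 to Pcca (r = 0.987), Tubb2b and Nfia (both r = 0.979). Mgp was nearest to Lipe, Nt5e (both r = 0.996) and Lbp (r = 0.995), and Tmem119 to Jcad (r = 0.997), Fndc3a (r = 0.994) and Ppard (r = 0.993).

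The other genes of the pathway were taken from 5 lists of 62 genes, of which 51 were tested. With differentiation under vehicle, 19 were upregulated and 2 downregulated (9.83% and 6.08% of all genes). FG-4592 upregulated 1 and downregulated 14 in MSCs (4.12% and 5.17%), and upregulated 4 and downregulated 9 in osteocytes (6.25% and 4.26%). The median log2 fold changes were 0.51, -0.17 and 0.00. Counts in each list below are to be read beside these shares. Counts of differing responses are to be read beside 3.94% of all genes with a positive and 1.07% with a negative difference. The lists were chosen with earlier results of these data known.

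Among genes of phosphate and pyrophosphate handling and matrix vesicles, 4 of 14 tested were upregulated with differentiation and none downregulated. The ecto-5′-nucleotidase Nt5e, which makes adenosine, went from 0.464 to 18.7 CPM (5.34, SE 0.16, FDR 1.32e-13). FG-4592 downregulated 3 of them in MSCs, including the ectonucleotidase Enpp3 (-1.09, SE 0.11, FDR 7.9e-07), and 2 in osteocytes, including the phosphate transporter Slc20a2, from 122 to 44.6 CPM (-1.46, SE 0.06, FDR 7.7e-12). Slc20a2 and Nt5e responded differently in the cell types (differences -1.34 and 1.82, FDR 1.46e-08 and 0.000191). Alppl2 and Akp3, the other alkaline phosphatases listed, were at 0 in every library.

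Of 17 tested genes of the remaining non-collagenous matrix, 11 were upregulated with differentiation and 1 downregulated. Smoc1, a calcium-binding relative of Sparc, rose from 0.284 to 65.2 CPM (7.80, SE 0.17, FDR 4.96e-15), and thrombospondin 2 (Thbs2) fell from 2481 to 969 CPM (-1.36, SE 0.07, FDR 8.87e-11). FG-4592 downregulated 8 of them in MSCs and upregulated none. The largest fitted fall was that of fetuin-A (Ahsg), at 3 to 7 counts in the vehicle libraries and at 0 in all those treated, too few to give a fold. In osteocytes 3 were upregulated, led by Clec3b from 1.68 to 9.13 CPM (2.44, SE 0.22, FDR 1.76e-07), and 5 were downregulated, led by periostin (Postn) from 69.4 to 6.01 CPM (-3.53, SE 0.24, FDR 5.87e-09). The responses of the cell types differed past both cutoffs for 8 of them. In 7 the difference was positive, with the largest fitted value for Ahsg (3.56, SE 1.09, FDR 0.0285), which rests on its counts of 0, and it was negative for Postn alone (-2.01, SE 0.37, FDR 0.000781).

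Of the 5 tested genes of Gla proteins and the vitamin K cycle, of which Ggcx is also listed on an alternate scaffold and may be undercounted, Gas6, a growth factor with Gla residues, was the single one past both cutoffs with differentiation (376 to 1399.5 CPM, 1.90, SE 0.07, FDR 4.7e-12) and with FG-4592 in MSCs (376 to 105 CPM, -1.84, SE 0.08, FDR 1.19e-11), and none was with FG-4592 in osteocytes, where Gas6 fell to 714 CPM (-0.97, SE 0.07, FDR 1.78e-08), just short of the fold cutoff. Among 8 genes for phosphorylation and cleavage of matrix proteins, Phex, the osteocyte endopeptidase that degrades SIBLING peptides, rose from 0.977 to 57.6 CPM with differentiation (5.88, SE 0.24, FDR 6.72e-12). It fell to 2.83 CPM with FG-4592 in osteocytes (-4.35, SE 0.21, FDR 7.98e-11), the one gene of this list called there, and by 1.53 in MSCs (FDR 0.00269), with a difference of the responses of -2.81 (SE 0.46, FDR 0.000301). The protease gene Tll1 fell with differentiation, from 1.93 to 0.0931 CPM (-4.28, SE 0.47, FDR 1.14e-06), and rose with FG-4592 in MSCs (1.03, SE 0.34, FDR 0.0248).

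Of 7 tested receptors for these proteins, the osteopontin-binding integrin subunit Itga9 was upregulated with differentiation (1.07, SE 0.08, FDR 7.85e-09) and downregulated by FG-4592 in MSCs, from 34.3 to 4.02 CPM (-3.09, SE 0.09, FDR 2.03e-13), and in osteocytes (-1.09, SE 0.08, FDR 8.49e-09). Its responses differed by 2.00 (SE 0.12, FDR 8.95e-09). Itgb3, the beta subunit of the vitronectin receptor that binds Spp1 and Ibsp, was upregulated by FG-4592 in osteocytes, from 111 to 305 CPM (1.46, SE 0.06, FDR 7.22e-12). In MSCs its means were 80.9 CPM with vehicle and 159 CPM with FG-4592. The MSC libraries did not overlap, but the change was not past both cutoffs.

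**Figure D5:**
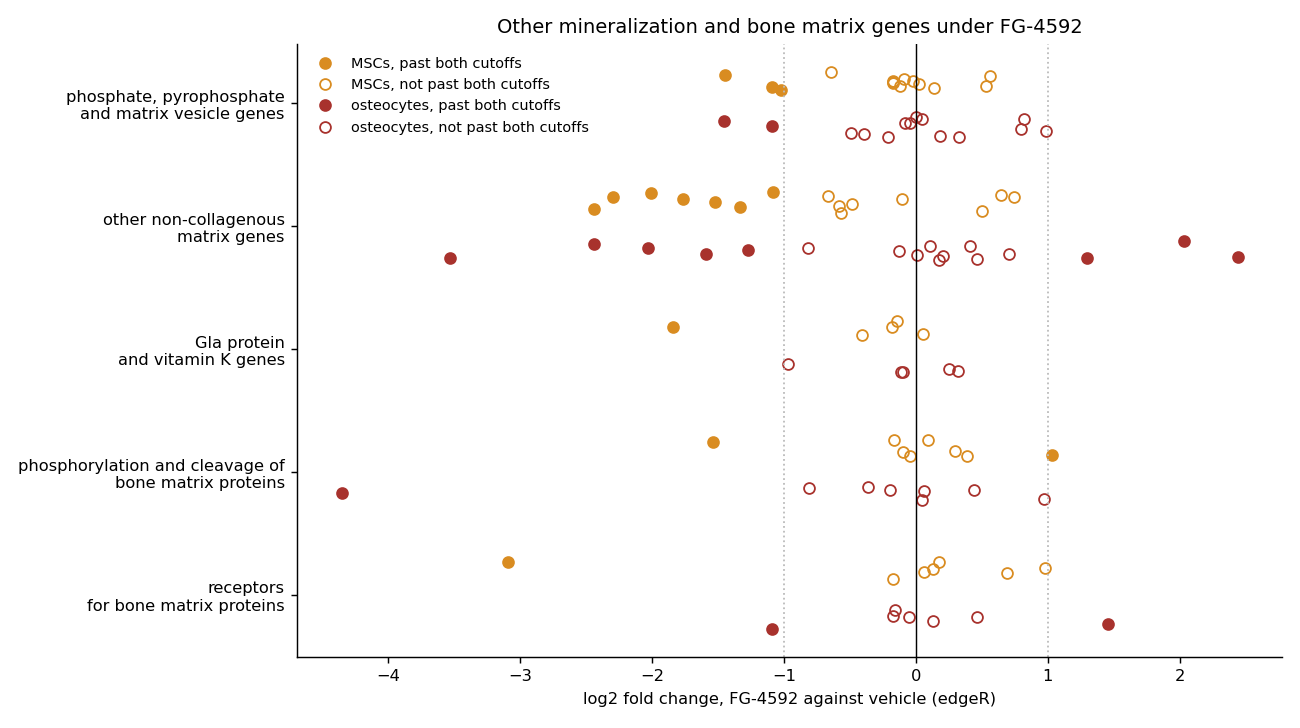
log2 fold change (horizontal axis) with FG-4592 against vehicle of the genes of the 5 pathway lists, 49 in MSCs and 51 in osteocytes, filled where past both cutoffs (dotted lines at a change of 1); vertical scatter within a row is only for legibility, and Ahsg and Vtn are not drawn for MSCs, where they had 0 counts with FG-4592. In MSCs the filled points lie at negative values except for Tll1, and in osteocytes they lie on both sides.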

How the data were processed

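RNAseq was done on 12 libraries of MPC2 cells, 3 for each condition named in the labels. The authors aligned the read pairs with STAR 2.7.2a (mm10), ran featureCounts (Subread 1.6.2) on Gencode genes, and deposited 1 unnormalized count per gene and library. The methods state that a pair counts for every gene that it overlaps, with no strand option, and the counts themselves differ from that, as described for Phospho1.

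From these counts, genes were kept if over 10 counts were reached in 3 libraries or more, and edgeR 4.0.16 (R 4.3.3) was run on all 12 libraries with TMM factors (0.947 to 1.06), 1 coefficient per condition and the quasi-likelihood test. Adjustment was by Benjamini-Hochberg over 16484 genes, the cutoffs were an FDR of 0.05 and a log2 fold change of 1, and the SE is the log2 fold change over the square root of F. The fit was also run on simulated counts in which far fewer genes changed than here, which does not test the calls reported.

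The members and lists were chosen with earlier results of these data known. All members are named, and from each list the largest rise and the largest fall past both cutoffs, among genes averaging 100 counts or more where highest, for every comparison except that of cell types under FG-4592. The 3 nearest protein-coding genes to each member were ranked by Pearson r on log2 CPM with a prior count of 2. Alternatives were RLE factors, upper-quartile factors, library sizes alone, no filter, filterByExpr, the likelihood ratio test, DESeq2 1.42.0, fits of the compared libraries only, a replicate block, thinning, summed osteocalcin counts, and leaving out each library. Transcripts were those of GENCODE M21, an earlier release than the authors', and promoters those of RefSeq, found for 7 of the 10 genes.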

Additional observations from a re-analysis of the deposited data

Results flagged for a closer look

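For 7 of the 10 genes the response to FG-4592 differed between osteocytes and MSCs by the test of the difference itself (edgeR's quasi-likelihood test, adjusted over all genes), at an FDR under 0.05, which 24.3% of all genes tested passed. The difference, osteocytes minus MSCs on the log2 scale, was 1.16 for Alpl (FDR 3.33e-05), 0.72 for Enpp1 (FDR 0.000405), 2.57 for Ibsp (FDR 7.32e-06), 0.90 for Mgp (FDR 0.00287) and 2.63 for Tmem119 (FDR 2.48e-12). It was -0.89 for Phospho1 (FDR 0.0174) and -0.59 for Spp1 (FDR 0.00247). For Alpl and Ibsp both cell types fell and MSCs fell further, for Phospho1 both rose and MSCs rose further, and for Mgp the responses had opposite signs. Conditions of 3 libraries were not searched for a library that stands apart.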

How the results depend on the processing

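Over the alternatives, no change of direction was found for a member whose change passed the FDR cutoff. The number of members past both cutoffs was 5 with differentiation under vehicle, 3 with FG-4592 in MSCs and 7 with differentiation under FG-4592 in each alternative, and 4 or 5 with FG-4592 in osteocytes, where Phospho1 fell short with library size alone (0.95) and when 1 of 3 libraries was left out. For the difference of the responses it was 3, and 3 to 5 when each library was left out in turn. It was 5 without MSC vehicle library 3, where Phospho1 (-1.03) and Mgp (1.00) passed, and 5 without osteocyte vehicle library 1, where Phospho1 (-1.04) and Bglap2 (-1.02) passed. Numbers of list genes stayed within 12 to 25 over the comparisons and within 1.5 times the reported ones. Of the members' own fold changes under the alternatives, 1059 kept their side of the FDR cutoff, 35 lost it and 6 gained it. Those that lost it were changes of Spp1 and Sparc under FG-4592 between the cell types, Sparc and Mgp with FG-4592, Alpl between the cell types under vehicle, and once the difference of Phospho1. Those that gained it were Bglap2 with FG-4592 in MSCs, the difference of Bglap2, and once Sparc with FG-4592 in osteocytes. The replicate numbers did not pair the libraries, since deviations of same-numbered libraries correlated between -0.053 and 0.054, and with the replicate number as a block the members called were 5, 3, 5, 7 and 3 in the 5 comparisons and no member changed its side of the FDR cutoff. For the difference of the responses, a fit of only the libraries compared would hold all of them and was not run. Depth limits Bglap in MSCs, at 8 to 18 counts, most.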

Other observations

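The following list genes were chosen after their values were seen. With differentiation under vehicle the small leucine-rich proteoglycan decorin (Dcn), which binds collagen fibrils, went from 8.69 to 1027 CPM (log2 fold change 6.88, SE 0.10, edgeR FDR 5.71e-17), osteoglycin (Ogn) from 338 to 1213 CPM (1.85, SE 0.09, FDR 7.13e-11) and tenascin C (Tnc) from 122 to 2084 CPM (4.09, SE 0.09, FDR 3.31e-15). FG-4592 lowered Tnc in MSCs (-2.01, SE 0.08, FDR 1.19e-11) and in osteocytes (-1.59, SE 0.08, FDR 1.02e-10). It lowered Ogn in MSCs, to 99.2 CPM (-1.77, SE 0.09, FDR 2.41e-10), and in osteocytes the change was 0.18 (SE 0.09, FDR 0.124). The responses of Ogn differed by 1.94 (SE 0.13, FDR 2.71e-08).

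In osteocytes FG-4592 raised fibronectin (Fn1) from 5043 to 12397 CPM (1.30, SE 0.06, FDR 2.06e-11) and thrombospondin 1 (Thbs1) from 1619 to 6605 CPM (2.03, SE 0.06, FDR 1.02e-13). The MSC means with vehicle and with FG-4592 were 5950 and 9289 CPM for Fn1 and 2693 and 3805 CPM for Thbs1. The MSC libraries did not overlap for either gene, and neither change was past both cutoffs. The kinase Fam20c, which phosphorylates SIBLING proteins, rose in MSCs (0.39, SE 0.07, FDR 0.000397) and fell in osteocytes (-0.81, SE 0.07, FDR 9.96e-08), and these responses differed by -1.20 (SE 0.10, FDR 3.65e-07). Ank, the pyrophosphate transporter gene that acts beside Enpp1, fell slightly in MSCs (-0.17, SE 0.06, FDR 0.0342) and rose in osteocytes (0.33, SE 0.06, FDR 0.000277). The sphingomyelinase Smpd3 was at 5.32 and 10.5 CPM in osteocytes with vehicle and FG-4592 (0.99, SE 0.17, FDR 0.000155).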
